A study of Mus musculus with 10 samples.

Results

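Mechanosensitive ion channels open when the membrane or its attachments are stretched. The 9 genes described here were listed as genes of stretch-activated channels or polycystins, although direct gating by stretch is debated for several. They are Piezo1, Piezo2, Kcnk2, Trpc1, Trpc6, Trpv4, Trpm7, Pkd1 and Pkd2, a list taken by name and not by any measured value. All 9 were found among the 32648 genes of the deposited table, and all 9 were among the 18825 genes with enough counts to be tested. RNA was measured by RNA-seq in renin cells of C57BL/6 mice that carry the Ren1c-YFP reporter, in which renin-producing cells glow yellow. Living YFP-positive cells of the kidney cortex were sorted, 1000 per kidney, at 72 h after surgery, from mice aged 8 to 12 weeks, and amplified with the SMART-Seq v4 kit. The 10 libraries form 4 groups: the right kidneys of 3 mice with aortic coarctation, the left kidneys of the same 3 mice, the right kidneys of 2 sham-operated mice and the left kidneys of the same 2 mice. The coarctation narrowed the aorta between the origins of the renal arteries, and in sham mice the aorta was neither exposed nor narrowed. All groups carry the reporter, and the cells are chosen by the activity of the renin gene itself, so the sort does not sample cells that have switched the reporter off. The left renal artery of the mouse commonly arises below the right, so that the left kidney would lie beyond the narrowing, but the labels give no pressures.

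Renin cells of the afferent arteriole act as the pressure sensor of the kidney, releasing less renin when the arteriole is stretched. They differ from most secretory cells in that a rise in intracellular calcium lowers renin release, through calcium-inhibited adenylyl cyclases and calcium-activated phosphodiesterases that lower cyclic AMP. A stretch-gated channel that admits calcium is therefore a way in which pressure could reach the renin gene. PIEZO channels are large trimeric cation channels gated directly by membrane tension. TRPC, TRPV and TRPM channels are tetrameric cation channels whose direct gating by stretch is debated for several members. The polycystins are a large receptor-like protein (Pkd1) and a cation channel (Pkd2) that assemble in primary cilia, and Kcnk2 encodes a stretch-opened potassium channel that hyperpolarizes the cell.

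The libraries held between 20029817 and 32006229 estimated counts. Log2 CPM (counts scaled to the library total after adjustment by its TMM normalization factor) correlated between libraries at 0.875 to 0.931 across genes. The libraries of sham mouse 1 stood apart, at 128 (right) and 107 (left) on the first principal component, while the other 8 lay between -74.4 and 1.12. Ren1 was between 5451 and 48620 TPM (transcripts scaled for length and depth) in every library, and the summed TPM of 5 smooth muscle markers was between 1558 and 4683. Summed levels of markers of other cells were lower, at 59.5 to 102.5 TPM for 6 endothelial genes, 34.4 to 477.3 TPM for 7 leukocyte genes and 68.0 to 800.6 TPM for 9 genes of the loop of Henle, distal tubule and collecting duct. In such sorted pools, fewer cells of a type and less RNA per cell cannot be told apart.

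None of the 9 genes passed the threshold in any comparison. With edgeR's quasi-likelihood test and Benjamini-Hochberg adjustment at 0.05, 0 of 9 were called higher and 0 of 9 lower for right against left kidneys of coarctation mice, where 0% of the 18825 tested genes were called. The same held for right against left kidneys of sham mice, for the difference between these changes, for left kidneys of coarctation against sham mice and for right kidneys of coarctation against sham mice, with 0% of tested genes called in each. Ren1 was thus not called either, at 5451 to 11980 TPM in right and 29290 to 48620 TPM in left coarctation kidneys. The absence of a call in this test therefore does not show that a gene was unchanged. At an unadjusted p under 0.05, 1 of the 9 (Piezo2) was lower in right than in left coarctation kidneys, where 2.25% of tested genes were lower and 4.63% differed in either direction. By the same measure 0 of the 9 differed between right and left sham kidneys (1.94% of tested genes), 1 of the 9 (Piezo2) between the side changes (3.05%), 0 between left kidneys (4.75%) and 0 between right kidneys (3.82%). limma-voom also called 0 of the 9 in every comparison. DESeq2 called 0 of the 9 for the difference between the side changes and 0 for left kidneys, where it called 0.182% and 0.209% of the genes it gave an adjusted p. It called 0 of 8 for right against left kidneys of coarctation mice (0.472% of genes), 0 of 8 for right against left kidneys of sham mice (0.178%) and 0 of 8 for right kidneys (0.398%), since it gave Kcnk2 no adjusted p in these. The lowest adjusted p of any of the 9 in any fit that kept all libraries was 0.289 (Piezo2 by DESeq2, coarctation right against left).

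The TRPC channels Trpc6 and Trpc1 had the highest levels of the 9. By median TPM over the 10 libraries, which is a level per transcript length, the order was Trpc6 (22.2), Trpc1 (17.6), Trpm7 (8.28), Pkd2 (6.11), Piezo2 (4.24), Trpv4 (0.874), Piezo1 (0.582), Pkd1 (0.484) and Kcnk2 (0.362). Trpc6 was above Trpc1 in 9 of 10 libraries, Trpc1 above Trpm7 in 8, Trpm7 above Pkd2 in 10, Pkd2 above Piezo2 in 8 and Piezo2 above Trpv4 in 9. The order among the 4 lowest was not separated by the spread over libraries: Trpv4 was above Piezo1 in 7 of 10, Piezo1 above Pkd1 in 4 and Pkd1 above Kcnk2 in 6. Piezo2 was thus at a higher level per length than Piezo1, the PIEZO channel better known from vascular cells.

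**Figure D1:**
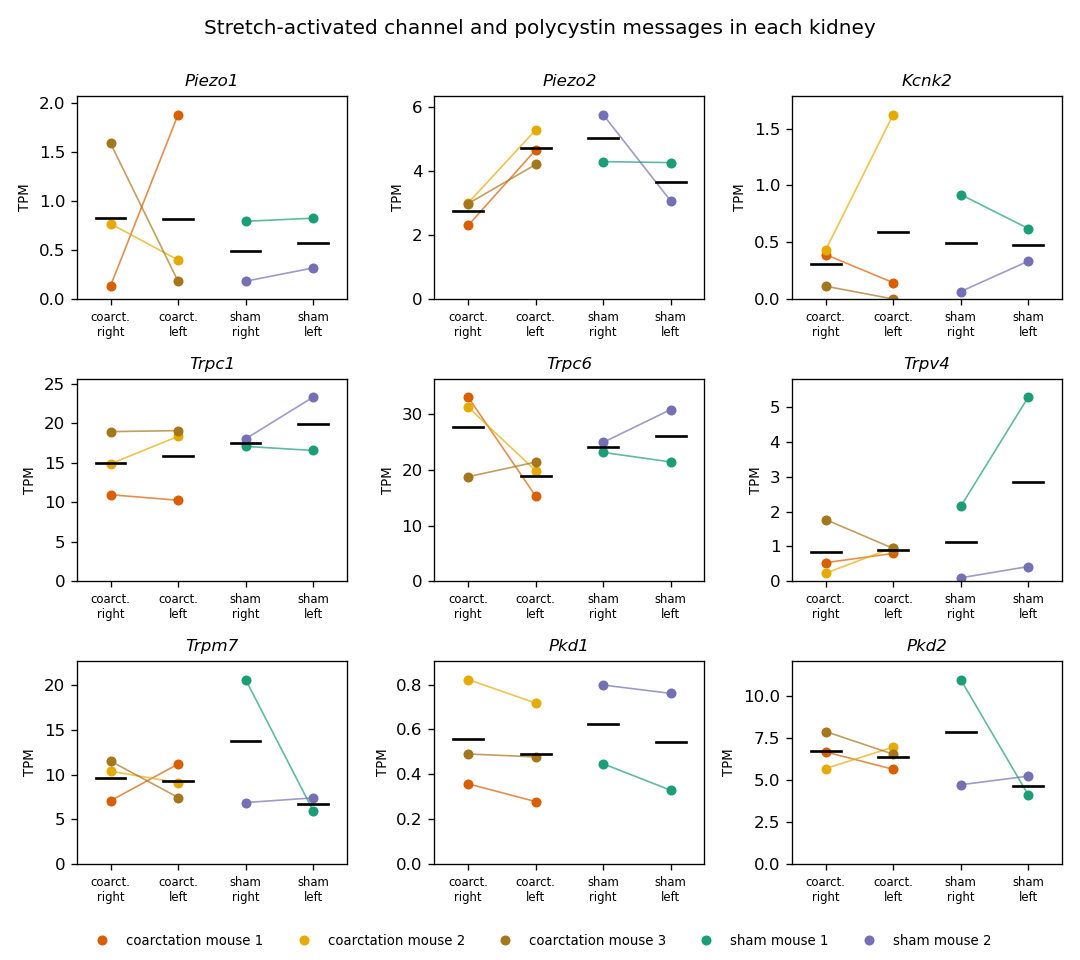
TPM of the 9 genes in each kidney, with 1 panel per gene and its own vertical axis from 0, the right kidney drawn left of the left kidney and coarctation left of sham; points are kidneys, thin lines join the kidneys of a mouse and black bars are group means. Piezo2 lies between 2.30 and 3.01 TPM in the 3 right coarctation kidneys and between 4.21 and 5.30 TPM in the 3 left ones, while the lines of the other genes except Pkd1 run both ways among the coarctation mice.

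Trpc6 encodes a receptor-operated calcium channel activated by diacylglycerol, known from vascular smooth muscle and podocytes, on the plus strand at chr9:8544142-8680741 (GRCm38, as for all positions). Trpc6 had 33.0, 31.2 and 18.7 TPM in the right kidneys of coarctation mice 1, 2 and 3, against 15.3, 19.8 and 21.3 TPM in their left kidneys. In the sham mice it had 23.1 and 24.9 TPM in right kidneys, against 21.4 and 30.7 TPM in left kidneys. Mice 1 and 2 with coarctation had more Trpc6 on the right and mouse 3 less, and the groups overlapped. Right against left, the log2 change of Trpc6 was 0.42 (SE 0.32, 95% interval -0.29 to 1.12, adjusted p = 1 by edgeR) in coarctation mice and -0.17 (SE 0.40) in sham mice, and the difference between the changes was 0.58 (SE 0.51). Without coarctation mouse 1 the coarctation change was 0.06, and without coarctation mouse 3 it was 0.78. With reads rebuilt from each library's own transcript length (described below for Piezo2) the coarctation change was 0.57 (SE 0.33), beside a median over all genes of 0.15. The rebuilt difference between the changes was 0.74 (SE 0.52), beside a median of 0.13. The summed TPM of 5 podocyte markers, another cell type that uses this channel, was 17.9 to 23.9 in right and 21.6 to 44.7 in left coarctation kidneys, against 35.9 to 42.6 in right and 30.3 to 43.6 in left sham kidneys, and its part in Trpc6 was not tested.

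Trpc1 encodes a subunit that assembles with other TRPC proteins and takes part in calcium entry after store release, on the minus strand at chr9:95705082-95750375. Trpc1 had 10.97, 14.9 and 19.0 TPM in the right kidneys of coarctation mice 1, 2 and 3, against 10.3, 18.4 and 19.1 TPM in their left kidneys. It had 17.1 and 18.0 TPM in right sham kidneys, against 16.6 and 23.3 TPM in left sham kidneys. Levels differed more between mice than between the kidneys of a mouse: coarctation mouse 1 was lowest on both sides. Its log2 change of right against left was -0.25 (SE 0.33, 95% interval -0.95 to 0.46) in coarctation mice and -0.23 (SE 0.40) in sham mice. The difference between these changes was -0.02 (SE 0.51), with an interval from -1.13 to 1.09.

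The start regions of Trpc6 and Trpc1 are shown because these channels have the highest levels. Both lie on chromosome 9 and come from RefSeq with its GRCm38.p6 positions, each from 250 bases before to 50 after the transcription start. They are written 5′ to 3′ on the strand of the gene, with capitals for the GC box core GGGCGG (or CCGCCC on the other strand) and the cAMP response element half-site TGACG (or CGTCA).
Trpc6, chr9:8543892-8544191, plus strand: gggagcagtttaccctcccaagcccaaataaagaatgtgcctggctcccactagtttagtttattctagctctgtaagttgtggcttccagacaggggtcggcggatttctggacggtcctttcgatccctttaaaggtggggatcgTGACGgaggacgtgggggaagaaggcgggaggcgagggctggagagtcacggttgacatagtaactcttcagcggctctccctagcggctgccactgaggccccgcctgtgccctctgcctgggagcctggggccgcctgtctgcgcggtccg
Trpc1, chr9:95750299-95750598, minus strand: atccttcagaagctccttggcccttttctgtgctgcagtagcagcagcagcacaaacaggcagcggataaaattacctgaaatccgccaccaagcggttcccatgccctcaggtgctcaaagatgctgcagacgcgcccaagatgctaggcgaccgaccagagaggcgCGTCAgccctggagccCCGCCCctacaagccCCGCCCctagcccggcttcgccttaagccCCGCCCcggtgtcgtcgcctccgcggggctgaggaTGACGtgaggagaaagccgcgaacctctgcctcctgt
The Trpc1 window held 3 GC box cores and 2 half-sites, and the Trpc6 window 0 and 1. Of 32851 mouse promoters of the same length, 35.7% held the GC box core and 20.8% the half-site on either strand. The Trpc6 window also held 1 CArG box, the binding motif of serum response factor, which 1.63% of promoters held, and the Trpc1 window held 0. These matches describe letters only, and binding was not measured.

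Piezo2 encodes the PIEZO channel best known from touch and proprioceptive neurons, and in the kidney it has been described in renin and mesangial cells. Piezo2 had 2.30, 3.01 and 2.99 TPM in the right kidneys of coarctation mice 1, 2 and 3, against 4.67, 5.30 and 4.21 TPM in their left kidneys. In sham mice 1 and 2 it had 4.31 and 5.78 TPM in right kidneys, against 4.27 and 3.07 TPM in left kidneys. The right and left coarctation groups did not overlap, and the right coarctation kidneys were also below both right sham kidneys. Every right coarctation kidney lay below every left one for 5.39% of tested genes, and right lay below left within each of the 3 coarctation mice for 13.5%. The log2 change was -0.94 (SE 0.38, 95% interval -1.76 to -0.11, adjusted p = 1 by edgeR), and within mice it was -1.11, -0.96 and -0.73. Sham mice 1 and 2 had within-mouse changes of -0.07 and 0.91. Piezo2 thus ranked 511 of 18825 genes by p in the coarctation comparison, and it did not pass the threshold.

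The difference between the side changes, coarctation minus sham, was -1.38 for Piezo2 (SE 0.60, interval -2.68 to -0.09, adjusted p = 1 by edgeR). With mouse as a block in edgeR it was -1.36, with an interval from -2.73 to 0.02 that includes 0. In that fit Piezo2 no longer had an unadjusted p under 0.05. By limma-voom with mouse as a random block the difference was -1.38, with an unadjusted p of 0.0209 and an adjusted p of 0.803. In edgeR without the block, the difference was -1.85 without sham mouse 1 and -0.85 without sham mouse 2. In right kidneys the change from sham was -0.76 (SE 0.42, adjusted p = 0.995 by edgeR), and in left kidneys it was 0.63 (SE 0.43, adjusted p = 0.912). These comparisons share libraries with each other and with the side comparisons, so their values are not independent. Ren1 itself, on which the sort rests, was at 5451, 11980 and 10840 TPM in the right and 29290, 48620 and 36880 TPM in the left kidneys of coarctation mice 1, 2 and 3. In sham mice 1 and 2 it was at 21780 and 48590 TPM in right and 30520 and 43900 TPM in left kidneys. The lower Piezo2 kidneys were thus also those with the least Ren1, and the part of the renin state of the sorted cells in the Piezo2 values was not tested.

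The direction of Piezo2 in 1 mouse depended on how transcript length entered its count. The deposited estimated counts are TPM multiplied by a gene's mean transcript length over all libraries, so that reads can be rebuilt by using each library's own length instead. The average transcript length given to Piezo2 was 2284 to 3223 bases in 9 libraries and 6026 bases in the right kidney of coarctation mouse 3. Rebuilt read numbers were 215, 386 and 606 in the right kidneys of coarctation mice 1, 2 and 3, against 492, 560 and 463 in their left kidneys. Rebuilt numbers were 332 and 497 in right and 428 and 370 in left sham kidneys. Mice 1 and 2 kept a lower right kidney, with rebuilt log2 changes of -1.27 and -0.76, while mouse 3 had 0.40. With rebuilt reads right thus lay below left in all 3 coarctation mice for 0 of the 9 genes, and for 9.11% of all genes. The rebuilt change over the mice was -0.43 (SE 0.43, interval -1.35 to 0.49), beside a median over all genes of 0.15 with rebuilt reads and 0.02 with deposited counts. The rebuilt difference between the side changes was -0.47 (SE 0.67, interval -1.93 to 0.99). GENCODE vM21 lists 15 Piezo2 transcripts of 689 to 10724 bases, 8 of them coding, although the transcript models behind the deposited lengths are not given in the labels.

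**Figure D2:**
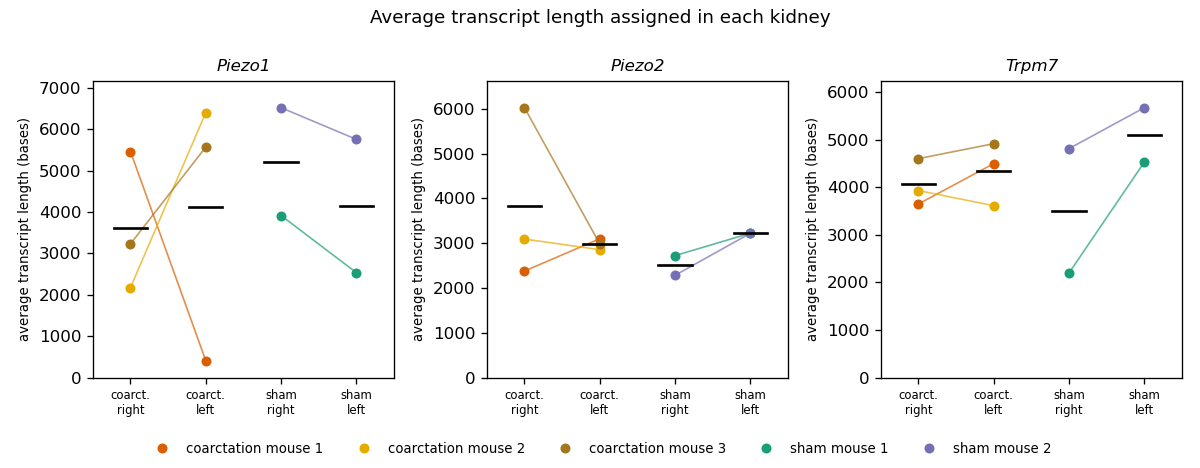
Average transcript length in bases assigned to Piezo1, Piezo2 and Trpm7 in each kidney, from the length columns of the deposited table, with lines joining the kidneys of a mouse and black bars for group means. Piezo1 runs between 408 and 6519 bases, Piezo2 stands at 6026 bases in the right kidney of coarctation mouse 3, and Trpm7 at 2198 bases in the right kidney of sham mouse 1.

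Piezo1 encodes the PIEZO channel of endothelium and smooth muscle, which admits calcium under shear and stretch. Piezo1 had 0.135, 0.767 and 1.59 TPM in the right kidneys of coarctation mice 1, 2 and 3, against 1.88, 0.397 and 0.180 TPM in their left kidneys. It had 0.792 and 0.182 TPM in right sham kidneys, against 0.823 and 0.316 TPM in left sham kidneys. No group was separated from another, and the coarctation mice ran both ways, with within-mouse log2 changes of -3.80, 0.79 and 2.81. The change over them was -0.28 (SE 1.02), with an interval from -2.50 to 1.94 that spans large changes in either direction.

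The assigned length of Piezo1 ran between 408 and 6519 bases, a 15.96-fold range that 0.606% of tested genes matched or exceeded. The highest deposited count, 262 in the left kidney of coarctation mouse 1, stood on 26.1 rebuilt reads at a length of 408 bases, while the right kidney of that mouse had a deposited count of 21.4 on 29.0 rebuilt reads at 5460 bases. Its kidneys thus differed by -3.80 on the log2 scale in deposited counts and by 0.07 in rebuilt reads. GENCODE vM21 places Piezo1 on the minus strand of chromosome 8, at chr8:122481698-122551329 in GRCm38, with 9 transcripts of 429 to 8219 bases. Of these, 4 are shorter than 1000 bases, and the longest has 51 exons. Its exons overlap those of Ctu2, a tRNA-thiolation gene on the other strand, which had 1.86 to 10.9 TPM. The labels state no strand-specific counting, so reads of the overlap are uncertain. With rebuilt reads the change of right against left was 0.77 (SE 0.82) in coarctation mice, against 0.06 (SE 1.00) in sham mice. The right kidney of coarctation mouse 3 had the most rebuilt Piezo1 reads, 172, and the left kidney of coarctation mouse 1 the fewest, 26.1. The sum of 6 endothelial markers, the cells best known for Piezo1, was 86.1 to 102.5 TPM in right and 59.5 to 84.3 TPM in left coarctation kidneys, and 71.1 to 90.9 TPM in right and 80.2 to 95.7 TPM in left sham kidneys. Nearly all of it was Emcn, at 57.3 to 100.5 TPM over the libraries. The means of the junction genes Pecam1 and Cdh5 ran the other way in coarctation mice, at 0.893 and 0.139 TPM in right and 1.45 and 0.360 TPM in left kidneys. Not every mouse did so, as Pecam1 was higher on the right in coarctation mouse 3 and Cdh5 in coarctation mouse 1. The receptor gene Kdr averaged 0.202 TPM in right and 0.257 TPM in left coarctation kidneys. Tek and Flt1 had higher means on the right, at 0.772 and 0.285 TPM, against 0.125 and 0.267 TPM in left coarctation kidneys. The part of endothelial RNA in the Piezo1 values was not tested.

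**Figure D3:**
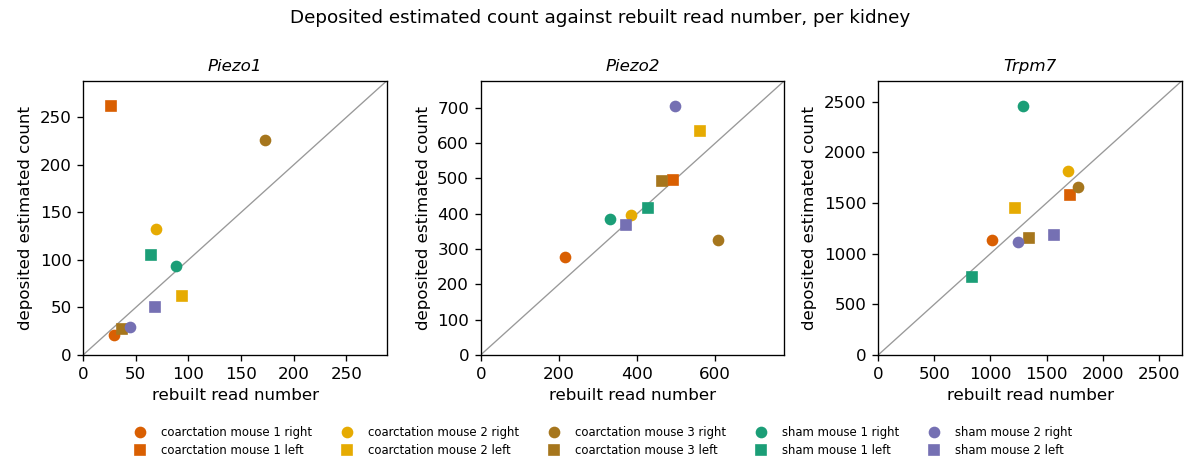
Deposited estimated count (vertical axis) against the read number rebuilt from TPM and each library's own transcript length (horizontal axis) for Piezo1, Piezo2 and Trpm7, with circles for right and squares for left kidneys and a line of equality. The left kidney of coarctation mouse 1 lies far above the line for Piezo1 (262 against 26.1), the right kidney of coarctation mouse 3 below it for Piezo2 (324 against 606), and the right kidney of sham mouse 1 above it for Trpm7 (2462 against 1286).

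Kcnk2 encodes the potassium channel TREK, which stretch opens, and it was close to the detection limit. Kcnk2 had 0.391, 0.432 and 0.113 TPM in the right kidneys of coarctation mice 1, 2 and 3, against 0.144, 1.62 and 0 TPM in their left kidneys. It had 0.919 and 0.0656 TPM in right sham kidneys, against 0.620 and 0.333 TPM in left sham kidneys. Rebuilt reads numbered 0 to 23 per library (median 5.5), and the count of 0 in the left kidney of coarctation mouse 3 allows up to 3 counts, or 0.109 CPM. Right against left, Kcnk2 had a log2 change of -0.91 (SE 1.43) in coarctation mice and -0.06 (SE 1.74) in sham mice. The assigned length of Kcnk2 ran between 160 and 1620 bases, a 10.1-fold range that 1.82% of tested genes matched or exceeded. With rebuilt reads the sham change was 1.34 (SE 1.64). A difference between kidneys was not detectable at this depth. Kcnk2 lies on the minus strand at chr1:189207930-189402273, and its exons overlap the plus-strand gene A430027H14Rik.

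Trpm7 encodes a magnesium- and calcium-permeable channel fused to a kinase domain. Trpm7 had 7.08, 10.4 and 11.5 TPM in the right kidneys of coarctation mice 1, 2 and 3, against 11.2, 9.11 and 7.44 TPM in their left kidneys. It had 20.7 and 6.88 TPM in right sham kidneys, against 5.96 and 7.40 TPM in left sham kidneys. The right kidney of sham mouse 1 stood alone at 20.7 TPM, and the other 9 libraries lay between 5.96 and 11.5 TPM. In that kidney the assigned length was 2198 bases, against 3610 to 5669 bases elsewhere, and its deposited count of 2462 stood on 1286 rebuilt reads. The log2 change of right against left in sham mice was 0.94 (SE 0.47, adjusted p = 1 by edgeR) and 0.12 (SE 0.41) with rebuilt reads. Without sham mouse 1 it was -0.10. In coarctation mice the change was -0.13 (SE 0.38, interval -0.94 to 0.69), with mice running both ways. In GENCODE vM21 Trpm7 (minus strand, chr2:126791565-126876230) has 11 transcripts of 467 to 7107 bases, 3 of them coding.

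Trpv4 encodes a calcium-permeable channel responsive to osmotic swelling, known in the kidney from the distal tubule and collecting duct and also from endothelium. Trpv4 had 0.538, 0.237 and 1.77 TPM in the right kidneys of coarctation mice 1, 2 and 3, against 0.802, 0.968 and 0.946 TPM in their left kidneys. It had 2.14 and 0.104 TPM in right sham kidneys, against 5.27 and 0.427 TPM in left sham kidneys. Both kidneys of sham mouse 1 were higher than all others and the right kidney of sham mouse 2 was the lowest, a 50.7-fold range over the series. For Trpv4 the change of right against left was -0.24 on the log2 scale (SE 1.09) in coarctation mice and -1.43 (SE 1.35) in sham mice, with right below left in both sham mice. This held for 3 of the 9 genes, Piezo1, Trpv4 and Trpc1, and for 24.3% of tested genes. The assigned length varied little, between 2125 and 2555 bases, so that rebuilt reads ran alike, at 45.0, 24.0 and 142 in right and 63.0, 77.0 and 80.0 in left coarctation kidneys, and 129 and 10.0 in right and 351 and 37.0 in left sham kidneys. The summed loop, distal tubule and collecting duct markers were 231.7 TPM in the right and 415.4 TPM in the left kidney of sham mouse 1, and 800.6 TPM in the right kidney of coarctation mouse 1, of which 654.3 TPM was 1 gene, Atp6v1g3 of intercalated cells. Aqp2, the water channel of collecting duct principal cells, had 58.7 TPM in that kidney, and 39.8 TPM in the right and 99.7 TPM in the left kidney of sham mouse 1. The left kidney of sham mouse 2, with 0.427 TPM of Trpv4, had 82.25 TPM of Aqp2 and a marker sum of 219.3 TPM. Its right kidney, with 0.104 TPM of Trpv4, had 9.49 TPM of Aqp2 and a sum of 98.3 TPM. The part of these tubule markers in the Trpv4 values was not tested. Trpv4 lies on the minus strand at chr5:114622152-114658421.

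Pkd2 encodes polycystin-2, the channel subunit of the polycystin complex. Pkd2 had 6.67, 5.68 and 7.88 TPM in the right kidneys of coarctation mice 1, 2 and 3, against 5.63, 6.96 and 6.53 TPM in their left kidneys. It had 10.98 and 4.72 TPM in right sham kidneys, against 4.11 and 5.23 TPM in left sham kidneys. The right kidney of sham mouse 1 was the highest and its left kidney the lowest of the 10. The right minus left log2 change of Pkd2 was -0.06 (SE 0.35, interval -0.81 to 0.69) in coarctation mice and 0.66 (SE 0.43) in sham mice, and the sham change was -0.14 without sham mouse 1. The assigned length was stable at 4533 to 4890 bases, and the rebuilt sham change was 0.63 (SE 0.41). Pkd2 lies on the plus strand at chr5:104459450-104505819.

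Pkd1 encodes polycystin-1, the large receptor-like partner of Pkd2. Pkd1 had 0.357, 0.822 and 0.490 TPM in the right kidneys of coarctation mice 1, 2 and 3, against 0.278, 0.718 and 0.477 TPM in their left kidneys. It had 0.447 and 0.798 TPM in right sham kidneys, against 0.329 and 0.761 TPM in left sham kidneys. Pkd1 followed the mouse more than the side: coarctation mouse 2 and sham mouse 2 were high in both kidneys. In TPM, coarctation mouse 1, sham mouse 1 and coarctation mouse 3 came lowest, in that order, on both sides. In log2 CPM sham mouse 1 came lowest, at 2.42 (left) and 2.77 (right), and coarctation mouse 1 next, at 2.64 and 2.90. The right kidney was above the left in all 5 mice in TPM and in 4 of 5 in log2 CPM, by 0.356 at most. The share of all genes with that pattern was not counted. The SD of the mouse means was 0.536 on the log2 CPM scale, and the SD between the kidneys of a mouse was 0.154. Their ratio of 3.47 compares with a median of 0.93 over tested genes, and 1.35% of tested genes had a ratio as large. Between right and left kidneys the log2 change of Pkd1 was 0.02 (SE 0.55, interval -1.18 to 1.22) in coarctation mice and 0.16 (SE 0.68) in sham mice. Pkd1 lies on the plus strand at chr17:24549834-24596508, and its exons overlap those of Tsc2 on the minus strand, which had 3.65 to 7.20 TPM.

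The same measure separated the other channels. It was 1.49 for Trpc1, 1.37 for Trpv4 and 1.20 for Kcnk2, above the median of 0.93, and 0.588 for Pkd2, 0.534 for Trpc6, 0.392 for Piezo1, 0.380 for Trpm7 and 0.104 for Piezo2, below it. In deposited counts Piezo2 thus had nearly the same mean in all 5 mice, between 4.00 and 4.15 log2 CPM. Its kidneys differed by up to 1.11 within a mouse. The ratios were not computed with rebuilt reads, which moved Piezo1, Piezo2 and Trpm7. With rebuilt reads Piezo2 was at 4.49 (left) and 3.22 (right) log2 CPM in coarctation mouse 1. It was at 4.19 (left) and 4.59 (right) in coarctation mouse 3, so its mouse means were less alike. With 5 mice, these ratios are descriptions of these animals.

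**Figure D4:**
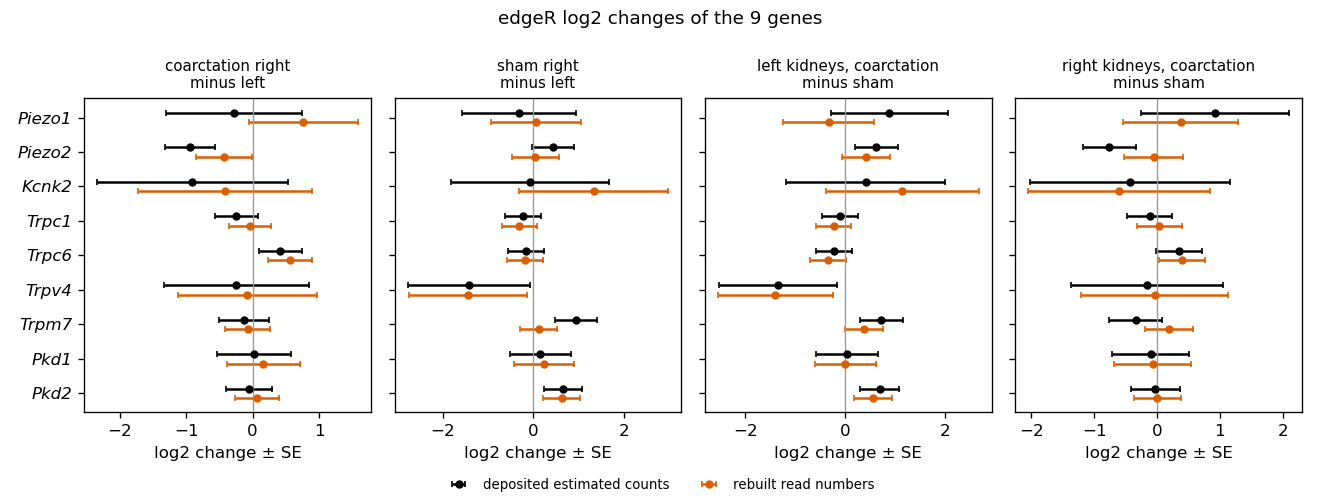
Log2 changes of the 9 genes from edgeR with their standard errors, for right minus left kidneys in coarctation and in sham mice and for coarctation minus sham in left and in right kidneys, from the deposited estimated counts (black) and from rebuilt read numbers (orange). Piezo2 stands at -0.94 in the first panel from deposited counts and at -0.43 from rebuilt reads, and Trpm7 in the second panel at 0.94 and 0.12.

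Between surgeries, 3 of the 9 genes had every left coarctation kidney above every left sham kidney in CPM, where 9.73% of tested genes did. These were Piezo2, with a log2 change of 0.63 (SE 0.43), Trpm7, with 0.73 (SE 0.43), and Pkd2, with 0.69 (SE 0.40), none past the threshold. Trpm7 had 11.2, 9.11 and 7.44 TPM in left coarctation kidneys, against 5.96 and 7.40 TPM in left sham kidneys, so that the groups met almost end to end. Without sham mouse 1 the changes were 0.81 for Piezo2, 0.53 for Trpm7 and 0.47 for Pkd2. With rebuilt reads 2 of the 9, Piezo2 and Pkd2, kept this separation, where 7.85% of genes had it. In right kidneys 1 of the 9, Piezo2, had every coarctation kidney below every sham kidney, as did 9.18% of tested genes, and 0 of the 9 did so with rebuilt reads, where 8.15% of genes did. The other 8 genes overlapped between surgeries in right kidneys, with Trpc6 at a log2 change of 0.35 (SE 0.37). In left kidneys Trpv4 had the largest change of the 9, -1.35 (SE 1.19), which turned to 1.26 without sham mouse 1.

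Over the 9 genes, the median log2 change of right against left was -0.24 in coarctation mice, with 7 below 0 and 2 above, beside a median of 0.02 over all genes. In sham mice the median was -0.06 (5 below 0 and 4 above), also beside 0.02. For left kidneys of coarctation against sham mice it was 0.41, with 6 above 0, beside -0.02 over all genes, and for right kidneys it was -0.12, with 2 above 0, beside -0.05.

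Other channels linked to stretch were examined as a list of 39, of which 37 were tested, and 0 were called in any comparison by edgeR, DESeq2 or limma-voom. In coarctation mice 20 of the 37 had a higher and 17 a lower value on the right, with a median log2 change of 0.10, and 1 had an unadjusted p under 0.05. That was Gja5, the gap junction protein connexin 40 that couples renin cells to their neighbours, at 13.5, 4.44 and 5.99 TPM in the right kidneys of mice 1, 2 and 3, against 22, 16.2 and 10.9 TPM in their left kidneys, a log2 change of -1.13 (SE 0.50, adjusted p = 1 by edgeR). Gja5 was lower on the right in all 3 mice, as were 13.5% of tested genes, and it was named for its small p in this comparison. Next was Panx1, a large-pore channel that releases ATP, at 0.0324, 2.68 and 2.98 TPM in the right kidneys of coarctation mice 1, 2 and 3, against 0.262, 0.541 and 0.278 TPM in their left kidneys (log2 change 2.17, SE 1.07). Panx1 was higher on the right in mice 2 and 3 and lower in mouse 1.

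Partners and maturation factors of the 9 channels numbered 24, all tested, with 0 called by edgeR or limma-voom in any comparison and 1 by DESeq2 (Pkhd1, the fibrocystin gene, right kidneys of coarctation against sham mice, where DESeq2 called 0.398% of genes). In coarctation mice 10 were higher and 14 lower on the right, with a median of -0.08. The smallest p belonged to Sec61b, a subunit of the translocon that inserts membrane proteins, at 361, 343 and 503 TPM in right kidneys of mice 1, 2 and 3, against 515, 672 and 501 TPM in left kidneys (log2 change -0.63, SE 0.28, adjusted p = 1 by edgeR). Dnajb11, a chaperone of the endoplasmic reticulum needed for polycystin-1 maturation, followed at -0.69 (SE 0.33). Sec61b was lower on the right in mice 1 and 2 and about level in mouse 3.

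Calcium-sensing effectors, the enzymes and channels through which calcium meets cyclic AMP in renin cells, numbered 26, all tested, with 0 called by edgeR or limma-voom in any comparison and 1 by DESeq2 (Casr, coarctation right against left, where DESeq2 called 0.472% of genes). In coarctation mice 10 were higher and 16 lower on the right, with a median of -0.08. Casr, the calcium-sensing receptor that restrains renin release, had 0.0621, 0.0615 and 0.0299 TPM in the right kidneys of coarctation mice 1, 2 and 3, against 0.308, 0.973 and 1.79 TPM in their left kidneys. It had 0.198 and 0.0157 TPM in right sham kidneys, against 1.21 and 0.0676 TPM in left sham kidneys. Right coarctation kidneys, none above 0.0621 TPM, were below left ones without overlap, as for 5.39% of tested genes. Casr was named for the smallest p of its list in this comparison. Right lay below left in both sham mice too, as for 24.3% of tested genes. The log2 change in coarctation mice was -4.45 (SE 1.28, adjusted p = 0.921 by edgeR). Its adjusted p was 0.0202 by DESeq2 and 0.0499 without the filter on low counts. With rebuilt reads the change was -2.82. Casr is also expressed in the loop of Henle. Slc12a1, a transporter gene that marks it, had 3.51, 2.67 and 0.385 TPM in right and 8.00, 3.00 and 2.38 TPM in left coarctation kidneys of mice 1, 2 and 3. Slc12a1 was lower on the right in all 3 as Casr was, which held for 13.5% of tested genes. Umod, another loop gene, had 48.3, 70.7 and 19.8 TPM in right and 130.3, 22.6 and 45.0 TPM in left coarctation kidneys, lower on the right in mice 1 and 3. The sum of all 9 markers of loop, distal tubule and collecting duct ran the other way, at 800.6, 167.4 and 175.9 TPM in right and 233.9, 85.8 and 68.0 TPM in left coarctation kidneys. Atp6v1g3 made up 654.3, 75.5 and 100.9 TPM of it in right and 63.4, 24.3 and 8.78 TPM in left kidneys. The part of loop RNA in the Casr values was not tested. Pde1a, a calcium-activated phosphodiesterase, had the next smallest p, at 0.51 (SE 0.27). Sham mice 1 and 2 ran in the same direction, with 125.8 and 164.9 TPM of Pde1a in right and 87.3 and 88.9 TPM in left kidneys.

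Force-responsive transcriptional targets, mostly genes of the YAP and serum response factor programmes, numbered 21 by symbol, of which 18 were in the table and tested (the other 3 are newer symbols of genes listed by their older ones), with 0 called by edgeR, DESeq2 or limma-voom in any comparison. In coarctation mice 9 were higher and 9 lower on the right, with a median of -0.01. Mkl1, which encodes the actin-regulated cofactor of serum response factor, had 1.07, 5.40 and 3.28 TPM in the right kidneys of mice 1, 2 and 3, against 0.565, 1.70 and 0.799 TPM in their left kidneys. Right and left groups overlapped, with a log2 change of 1.48 (SE 0.62, adjusted p = 1 by edgeR) that was 0.68 with rebuilt reads. Mkl1 was named for the smallest p of its list in this comparison. Lats2, a kinase that restrains YAP, followed at -0.65 (SE 0.34). Sham mice 1 and 2 ran in the same direction, with 5.41 and 5.885 TPM of Lats2 in right and 8.80 and 9.74 TPM in left kidneys.

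The genes whose pattern over the 10 libraries was most like each channel were found by Pearson's r of log2 CPM among 9752 genes whose log2 CPM averaged 2 or more. Trpc6 was most like Taz, the tafazzin gene of that symbol in GRCm38 annotation (r = 0.958), and Snap23 (r = 0.913). Pkd1 was most like Junb (r = 0.972) and Med20 (r = 0.962), and Pkd2 most like Tmem185b (r = 0.887) and Ccdc127 (r = 0.874). These values changed little with rebuilt reads, where they were 0.940 and 0.887 for Trpc6, 0.970 and 0.952 for Pkd1 and 0.883 and 0.934 for Pkd2. Trpc1 was most like Atp8b2 (r = 0.911) and Cuta (r = 0.895), at 0.663 and 0.852 with rebuilt reads. Piezo2 was most like Enpp4 (r = 0.943) and Selenos (r = 0.903), at 0.525 and 0.455 with rebuilt reads, and Trpm7 most like Amt (r = 0.926) and Tmem185b (r = 0.902), at 0.619 and 0.674. The libraries are the kidneys of 5 mice and share depth and surgery within a mouse, so these are descriptions, and the highest of many values. Piezo1, Trpv4 and Kcnk2 were below the level needed.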

How the data were processed

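RNA-seq of sorted renin cells was available as 1 deposited table with 3 values per gene and library. TPM values were computed by the authors, per the file headers. The count columns hold estimated counts made by the authors, described in a deposited column as scaled from TPM by length and library size. They equalled TPM times a gene's mean length over libraries, scaled to the library total, within a relative 6.5e-10. Length columns give average transcript length in bases. Per the submitters' processing notes FastQC and GRCm38 (mm10) were used. For the quantifier and its transcript models, nothing is given in the sources used here.

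Counts were rounded and fitted with edgeR 4.0.16 in R 4.3.3 (filterByExpr, TMM, quasi-likelihood test, 4 group means over 10 libraries, no mouse term, common dispersion 0.45), with Benjamini-Hochberg adjustment over 18825 genes and a threshold of 0.05. Log2 changes, standard errors and 95% intervals come from that fit, and log2 CPM used a prior count of 2. limma 3.58.1 and DESeq2 1.42.0 were alternatives. The test was checked on simulated data. Rebuilt reads are TPM times each library's own length, scaled to its total. This alternative was chosen after seeing the data, and it left 18695 tested genes. Of rebuilt values between 0.5 and 100, 67.8% lay within 0.01 of a whole number.

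Kidneys were paired by the mouse number in the titles, which names the same animal. Deviations from group means correlated within a mouse at 0.127, 0.0496 and 0.0307 in coarctation mice 1, 2 and 3 and at 0.398 in the sham mice. With 2 mice in each sham group their deviations mirror each other, so the sham correlation is 1 value and not 2. The reads carry no molecular identifiers, so the limit given for a count of 0 covers counting error only. Gene positions are from GENCODE vM21, and 8 of the 9 genes had a RefSeq promoter entry. The 9 genes, the other gene lists, the markers and the rule for named genes (all 9 genes, the 2 smallest p of each list in coarctation right against left and any member called by edgeR, and the 2 genes most like each channel) were chosen with earlier results of these data known. Pkhd1 was named after its value was seen.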

Additional observations from a re-analysis of the deposited data

How the results depend on the processing

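None of the 9 genes passed the threshold under any of the 25 other settings. Of 404 values of the 9 genes under settings that kept all libraries, 366 kept their direction and 38 turned, with a lowest adjusted p of 0.289. Of 675 values without a library or a mouse, 570 kept their direction and 105 turned, with a lowest adjusted p of 0.497. Over all genes the main test called 0 in each comparison. DESeq2 called 76 for coarctation right against left, 28 for sham right against left, 34 for the difference between the side changes, 39 for left kidneys of coarctation against sham mice and 57 for right kidneys of coarctation against sham mice. Without a filter on low counts edgeR called 112 for coarctation right against left, 19 for sham right against left, 63 for the difference between the side changes, 67 for left kidneys of coarctation against sham mice and 70 for right kidneys of coarctation against sham mice. For coarctation right against left, edgeR with mouse as a replicate block called 5, limma-voom with mouse as a random replicate block 6 and rebuilt reads with the block 6, while limma-trend on log2(TPM + 1) called 2 for sham right against left and 3 for left kidneys of coarctation against sham mice. Without a library or a mouse these counts were 0 to 4 for coarctation right against left (4 without coarctation mouse 3), 0 to 1 for the difference (1 without coarctation mouse 3), 0 to 3 in right kidneys (3 without the right kidney of coarctation mouse 3) and 0 in the others. The block changed no call among the 9 genes: Piezo2 was -0.94 in coarctation right against left with the replicate block (adjusted p = 0.832 by edgeR). In the difference it was -1.36 with that block, where its unadjusted p was no longer under 0.05. By limma-voom with mouse as a random replicate block its unadjusted p there was 0.0209 (adjusted p = 0.803). Under the filter of 1 TPM in 2 libraries, 7 of the 9 genes remained, without Pkd1 and Kcnk2. Casr passed the threshold by DESeq2 (-4.44) and without the filter (-4.47). Rebuilt reads shifted the median of all genes by 0.13 in coarctation right against left and by 0.12 in the difference, and by 0.15 there with the block.

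Log2 changes that turned, all with an adjusted p above the threshold, were as follows, and the cause was not tested. With mouse as a replicate block in edgeR they were for coarctation right against left Kcnk2 0.43 and Piezo1 0.27 and for the difference between the side changes Kcnk2 1.09. By limma-voom they were for coarctation right against left Kcnk2 0.59 and Piezo1 0.022, for the difference between the side changes Kcnk2 1.36, for left kidneys of coarctation against sham mice Kcnk2 -1.17 and for right kidneys of coarctation against sham mice Kcnk2 0.18, Pkd2 0.031 and Trpv4 0.48. By limma-voom with mouse as a random replicate block they were for coarctation right against left Kcnk2 0.58 and Piezo1 0.019, for the difference between the side changes Kcnk2 1.35, for left kidneys of coarctation against sham mice Kcnk2 -1.17 and for right kidneys of coarctation against sham mice Kcnk2 0.17, Pkd2 0.031 and Trpv4 0.48. By limma-trend they were for coarctation right against left Piezo1 0.043, Pkd2 0.065 and Trpm7 0.049, for the difference between the side changes Trpc1 0.087 and for left kidneys of coarctation against sham mice Kcnk2 -0.027 and Pkd1 -0.047. Without a filter they were for right kidneys of coarctation against sham mice Pkd2 0.035. With rebuilt reads they were for coarctation right against left Piezo1 0.77 and Pkd2 0.068, for sham right against left Kcnk2 1.34 and Piezo1 0.057, for the difference between the side changes Trpc1 0.26, for left kidneys of coarctation against sham mice Piezo1 -0.33 and for right kidneys of coarctation against sham mice Pkd2 0.0045, Trpc1 0.038 and Trpm7 0.19. With rebuilt reads and the replicate block they were for coarctation right against left Kcnk2 0.41, Piezo1 0.51 and Pkd2 0.044, for sham right against left Kcnk2 1.23 and for the difference between the side changes Trpc1 0.27. 

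Without 1 library or mouse, the log2 changes that turned ranged as follows. For coarctation right against left they ran from -1.66 to 2.09 for Kcnk2, -1.68 to 1.89 for Piezo1, -0.26 to 0.43 for Pkd1, -0.18 to 0.23 for Pkd2, -0.44 to 0.036 for Trpc1, -0.39 to 0.22 for Trpm7 and -1.30 to 0.32 for Trpv4. For sham right against left they ran from -2.49 to 0.78 for Kcnk2, -1.54 to 0.41 for Piezo1, -0.087 to 0.92 for Piezo2, -0.50 to 1.00 for Pkd1, -0.14 to 1.32 for Pkd2, -0.52 to 0.13 for Trpc1, -0.47 to 0.21 for Trpc6, -0.099 to 1.70 for Trpm7 and -4.63 to 1.15 for Trpv4. For the difference between the side changes they ran from -1.69 to 2.15 for Kcnk2, -1.37 to 2.19 for Piezo1, -0.98 to 0.52 for Pkd1, -1.38 to 0.084 for Pkd2, -0.38 to 0.27 for Trpc1 and -1.39 to 4.39 for Trpv4. For left kidneys of coarctation against sham mice they ran from -2.54 to 0.99 for Kcnk2, -0.83 to 1.64 for Piezo1, -0.48 to 0.89 for Pkd1, -0.38 to 0.28 for Trpc1, -0.52 to 0.16 for Trpc6 and -2.19 to 1.26 for Trpv4. For right kidneys of coarctation against sham mice they ran from -1.26 to 2.01 for Kcnk2, -0.011 to 2.16 for Piezo1, -0.54 to 0.57 for Pkd1, -0.40 to 0.56 for Pkd2, -0.32 to 0.083 for Trpc1, -0.82 to 0.50 for Trpm7 and -1.22 to 3.06 for Trpv4. Piezo2 in coarctation right against left ran from -1.04 to -0.78. Depth limits Kcnk2 most, with a median of 5.5 rebuilt reads.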
